A study of Mus musculus with 12 samples.

Results

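Interferon-stimulated genes are the genes that cells switch on when they sense interferon. The 40 genes described here were chosen by name as known interferon targets, with earlier results of these data known. They were matched by gene symbol to the Ensembl rows of a table that lists 50684 mouse genes. All 40 were found, and all 40 passed the filter on low counts that left 19408 genes for testing.

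Type I interferons bind a receptor whose kinases activate transcription factors, Stat2 among them. Together with Irf9 these form a complex that binds the interferon-stimulated response element, and genes such as Isg15 and the Ifit and Oas families follow. Interferon-γ acts through another receptor and through factors that bind gamma-activated sites, and it is known for inducing the guanylate-binding proteins (Gbp), the immunity-related GTPases and the chemokine Cxcl9, partly by way of the factor Irf1. Many genes answer to both kinds of interferon, and in psoriatic skin both kinds have been described. For the comparison of the responses, 9 genes (Isg15, Ifit1, Ifit2, Ifit3, Oas1a, Oas2, Oas3, Oasl1 and Oasl2) were taken as a type I core list and 9 (Gbp2, Gbp3, Gbp4, Gbp5, Gbp7, Iigp1, Igtp, Irgm1 and Cxcl9) as an interferon-γ core list. The remaining 22 comprised 11 other antiviral genes, 2 sensors of viral RNA, 5 transcription factors, 3 genes of antigen processing and Cxcl10, a chemokine gene that either kind of interferon induces.

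Part of the ear of 8-week-old female C57BL/6 mice, with all its cell types ground together, was profiled by RNA-Seq on day 4 of treatment by intradermal injection of 5 µL into the ear pinna. The methods speak of consecutive treatment over the 4 days, and the number of injections is not given in the sources used here. A group of 3 mice had received PBS, another IL-17A (1 µg), another IL-36γ (1 µg) and another IL-17A + IL-36γ (1 µg of each), and the 3 mice of a group had been drawn at random from 5. The cytokines were recombinant murine proteins, and PBS was the solvent in every group. The question was what IL-17A and IL-36γ, both raised in psoriatic skin, do to the skin alone and together.

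Libraries held between 25293468 and 34759293 counts, and no pair of libraries of a group agreed within sampling noise. Values are CPM, the share of a gene in a library's counts after TMM scaling, and are listed in the order of replicates 1, 2 and 3, each from a mouse of its own. The labels name no sequencing batch. The keratinocyte markers Krt5, Krt14, Krt1, Krt10, Lor, Ivl, Dsg1a and Krt6a summed to between 13726 and 19546 CPM with PBS, 19487 and 21648 with IL-17A, 24038 and 32600.0 with IL-36γ and 31135 and 37938 with the combination, and 4 of these 8 were called raised after the combination. The 10 skeletal muscle markers summed to 440 to 3703 CPM with PBS, 2322 to 3245 with IL-17A, 1290.3 to 2388 with IL-36γ and 271 to 1422 with the combination. After the combination 3 of the 10 were called lowered, beside 1177 of all 19408 tested genes. The low PBS value was that of replicate 1, with 3703 and 3221 in replicates 2 and 3. The same ear had the highest keratinocyte sum of the PBS group, 19546 CPM. In ground tissue, more cells of a type and more RNA per cell cannot be told apart.

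IL-36γ raised most of the 40 interferon-stimulated genes, alone and with IL-17A. A gene was called raised at an adjusted p below 0.05 in edgeR's quasi-likelihood test together with a log2 fold change above 1. By this rule 31 of the 40 genes were raised by IL-36γ, where 5.11% of all tested genes were called raised, and 35 by the combination, where the share over all genes was 7.35%. After IL-17A alone 1 of the 40 was called, Oas1a, near the share of 1.07% over all genes, and this call rested on single ears. None of the 40 was called lowered in any of these comparisons, which share the PBS mice.

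With the adjusted p alone and no threshold on the fold, 38 genes were higher after IL-36γ (17.3% of all genes), with Gbp4 and Cxcl10 as the exceptions. All 40 were higher after the combination (23.7% of all genes), and 2, Oas1a and Irf8, after IL-17A (7.44% of all genes). The 3 ears of a cytokine group all lay above the 3 PBS ears for 40 genes after IL-36γ (22.4% of all genes), for 40 after the combination (27.0%) and for 10 after IL-17A (19.6%). Over the 40 genes the median log2 fold change was 0.53 with IL-17A, 1.67 with IL-36γ and 1.99 with the combination, beside medians over all tested genes of 0.04, -0.02 and -0.03. After IL-17A the fold change was above 0 for 37 of the 40 genes. With scaling by library size only, which moved the median of all genes to -0.13, it was above 0 for 31.

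**Figure D1:**
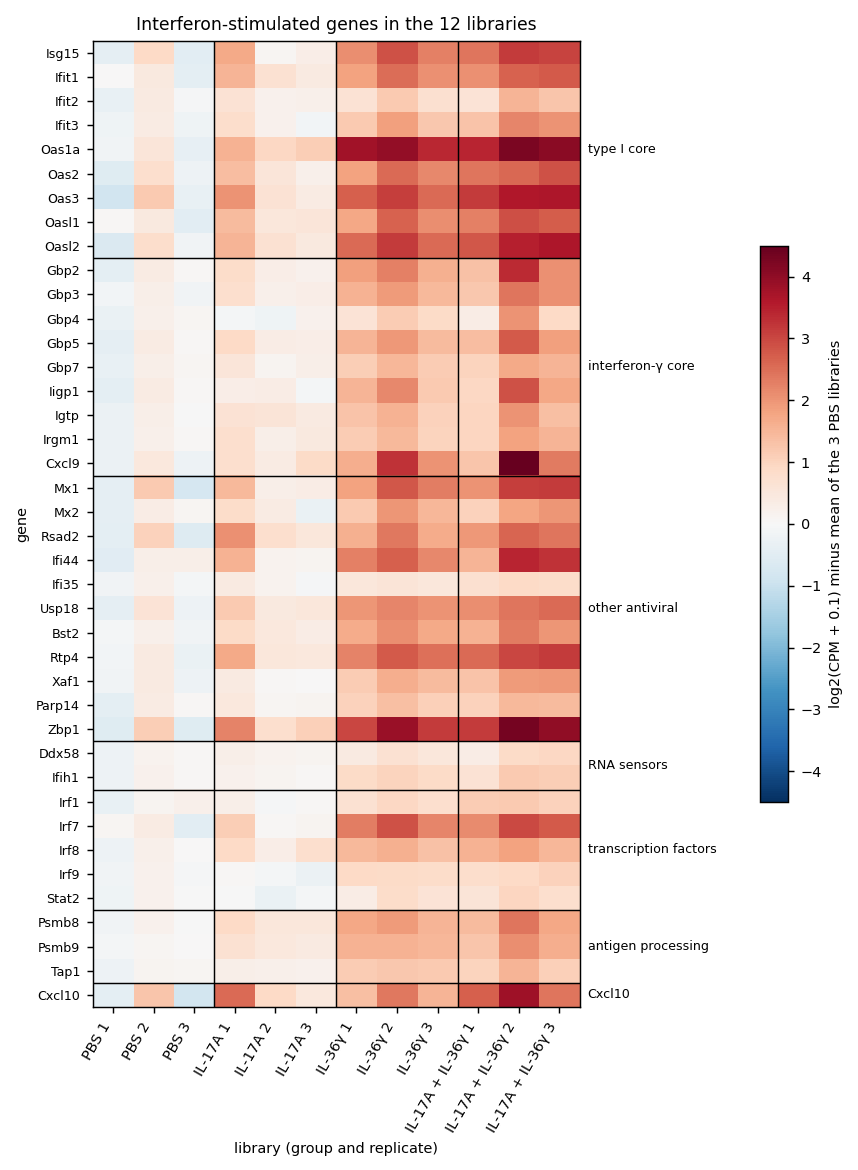
Expression of the 40 interferon-stimulated genes (rows, by role) in the 12 libraries (columns, by group and replicate), as log2(CPM + 0.1) minus the mean of the 3 PBS libraries, with red for higher and blue for lower. The IL-36γ and combination columns are red in nearly every row, the IL-17A columns are pale apart from replicate 1, and combination replicate 2 is the darkest column among the interferon-γ core genes.

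The promoters show how the members differ in sequence. Upstream windows were read from RefSeq (GRCm38.p6), with 250 bases before and 50 after each transcription start, and 31 of the 40 genes had an entry. The core of the interferon-stimulated response element was searched as GAAANNGAAA and the gamma-activated site as TTCNNNGAA, on both strands, and matches may overlap each other. The first motif was present in 17 of these 31 genes (54.8%), against 3.99% of the 27025 genes with a promoter entry, and the second in 10 (32.3%) against 9.55%. Both core lists held the response element, in 5 of 8 type I and 6 of 7 interferon-γ genes, and the gamma-activated site was found in 2 and 3 of them. Below are the 250 bases upstream of the start of 4 genes, shown because they carry the response element alone, the gamma-activated site alone or both, with letters that belong to a match in capitals and all others in lower case.
Isg15 (type I core; chr4:156200819-156201068, minus strand): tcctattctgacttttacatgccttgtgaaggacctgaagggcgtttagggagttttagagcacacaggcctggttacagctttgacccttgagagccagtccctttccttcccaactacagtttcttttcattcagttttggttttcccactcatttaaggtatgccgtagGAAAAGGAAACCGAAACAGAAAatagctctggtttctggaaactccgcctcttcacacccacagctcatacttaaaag
Oas1a (type I core; chr5:120907526-120907775, minus strand): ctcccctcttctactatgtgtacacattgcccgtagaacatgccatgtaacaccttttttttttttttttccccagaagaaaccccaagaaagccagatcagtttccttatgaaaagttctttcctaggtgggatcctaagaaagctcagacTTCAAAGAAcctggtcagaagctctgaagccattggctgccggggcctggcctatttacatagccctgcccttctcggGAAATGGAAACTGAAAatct
Gbp5 (interferon-γ core; chr3:142496684-142496933, plus strand): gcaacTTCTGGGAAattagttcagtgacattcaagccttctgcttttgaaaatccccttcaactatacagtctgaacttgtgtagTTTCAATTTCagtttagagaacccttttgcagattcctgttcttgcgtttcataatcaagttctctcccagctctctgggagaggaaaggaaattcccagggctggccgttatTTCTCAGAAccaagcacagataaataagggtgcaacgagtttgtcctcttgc
Irf1 (transcription factor; chr11:53769764-53770013, plus strand): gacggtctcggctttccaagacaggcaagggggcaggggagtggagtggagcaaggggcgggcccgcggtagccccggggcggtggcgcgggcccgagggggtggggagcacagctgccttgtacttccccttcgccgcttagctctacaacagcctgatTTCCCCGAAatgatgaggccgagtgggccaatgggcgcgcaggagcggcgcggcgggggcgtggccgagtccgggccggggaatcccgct
In Isg15 a run of 3 overlapping response elements began 78, 72 and 66 bases before the start, with no gamma-activated site. Oas1a held an overlapping pair at 20 and 14 bases and a gamma-activated site at 98 bases. Gbp5 held a response element at 165 bases and gamma-activated sites at 245 and 52 bases, and Irf1 held a gamma-activated site at 90 bases and no response element. Neither motif was found in the windows of 9 genes, Cxcl9, Ifi44, Irf7, Irf9, Oasl1, Oasl2, Psmb9, Tap1 and Xaf1. A match is a match of letters, not a measured site of binding. No promoter entry was found for Oas2, Gbp4, Iigp1, Mx1, Mx2, Usp18, Rtp4, Parp14 and Zbp1.

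Of the type I core list, 8 of 9 genes were raised by IL-36γ, 9 by the combination and 1 by IL-17A, with median log2 fold changes of 2.28, 2.73 and 0.85. Isg15 encodes a ubiquitin-like protein that is conjugated to other proteins during the antiviral response. It was at 0.941, 2.46 and 0.909 CPM with PBS, 4.396, 1.396 and 1.61 with IL-17A, 5.82, 9.93 and 6.61 with IL-36γ and 7.22, 12.3 and 11.3 with the combination. Every ear that had received IL-36γ exceeded every PBS and IL-17A ear, and the log2 fold change was 2.37 (SE 0.47, adjusted p = 0.00363) for IL-36γ and 2.83 (SE 0.47, adjusted p = 5.73e-04) for the combination. PBS replicate 2 stood above the other PBS ears, and without it these values were 3.003 and 3.47.

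The Ifit proteins bind viral RNA and block its translation. Ifit1 was at 4.35, 5.80 and 3.12 CPM with PBS, 12.6, 6.88 and 5.75 with IL-17A, 15.2, 25.3 and 18.04 with IL-36γ and 17.9, 27.4 and 29.8 with the combination. Ifit3 was at 9.99, 14.8 and 10.1 CPM with PBS, 19.9, 13.0 and 10.6 with IL-17A, 25.9, 40.9 and 26.7 with IL-36γ and 27.9, 52.2 and 46.7 with the combination, and 40.7% of its read-length sequence windows are shared with other genes, chiefly Ifit3b, so that counts of these neighbours cannot be fully separated. In both genes the groups with IL-36γ lay wholly above PBS, and the combination raised Ifit1 by a log2 value of 2.499 and Ifit3 by 1.86. Ifit2, which restrains viruses in many tissues, was at 11.0, 18.7 and 13.5 CPM with PBS, 21.9, 16.3 and 16.3 with IL-17A, 22.3, 31.5 and 23.0 with IL-36γ and 21.5, 41.2 and 33.4 with the combination. It had the smallest change of the list, with log2 values of 0.83 after IL-36γ, which is below the fold threshold, and 1.15 (SE 0.25, adjusted p = 0.00284) after the combination. The latter fell under the threshold without PBS replicate 1 (0.99) or without combination replicate 2 (0.92).

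The Oas genes encode oligoadenylate synthetases, enzymes that detect viral RNA and switch on RNase L. Oas1a had the largest fold change of the 40 genes against PBS after IL-36γ and after the combination, at 0.914, 1.56 and 0.788 CPM with PBS, 3.31, 2.09 and 2.33 with IL-17A, 15.6, 17.7 and 11.9 with IL-36γ and 12.2, 21.5 and 18.9 with the combination. The IL-17A ears lay above all PBS ears and below all ears with IL-36γ, and IL-36γ alone and the combination overlapped. Its log2 fold change was 1.24 with IL-17A (SE 0.31, adjusted p = 0.0336), 3.79 with IL-36γ (SE 0.30, adjusted p = 2.85e-05) and 4.01 with the combination (SE 0.30, adjusted p = 7.32e-06). The call for IL-17A did not hold without PBS replicate 3 (adjusted p = 0.1497) or without IL-17A replicate 1 (0.157), 2 (0.0552) or 3 (0.0526). Of the windows of Oas1a, 47.3% are shared with other genes, chiefly its paralog Oas1g.

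Oas2 was at 1.66, 4.19 and 2.09 CPM with PBS, 6.61, 3.59 and 2.90 with IL-17A, 8.75, 14.9 and 11.3 with IL-36γ and 13.3, 15.3 and 18.3 with the combination. Oas3 was at 0.637, 2.94 and 0.970 CPM with PBS, 5.30, 1.99 and 1.61 with IL-17A, 8.52, 11.4 and 7.68 with IL-36γ and 11.67, 16.1 and 16.7 with the combination. PBS replicate 2 was the highest PBS ear in both, and without it the log2 fold change of Oas3 moved from 2.59 to 3.51 after IL-36γ and from 3.28 to 4.21 after the combination. The relatives Oasl1 and Oasl2, whose proteins resemble the synthetases, moved in the same way. Oasl1 was at 0.830, 1.13 and 0.546 CPM with PBS, 2.33, 1.20 and 1.21 with IL-17A, 2.93, 5.63 and 3.72 with IL-36γ and 4.21, 6.69 and 5.82 with the combination. Oasl2 was at 1.94, 5.41 and 2.73 CPM with PBS, 9.02, 5.02 and 4.18 with IL-17A, 18.6, 27.8 and 18.6 with IL-36γ and 21.9, 36.0 and 39.7 with the combination. IL-36γ raised these genes by log2 values of 2.14 for Oas2, 2.28 for Oasl1 and 2.69 for Oasl2, and the combination by 2.56, 2.73 and 3.28.

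**Figure D2:**
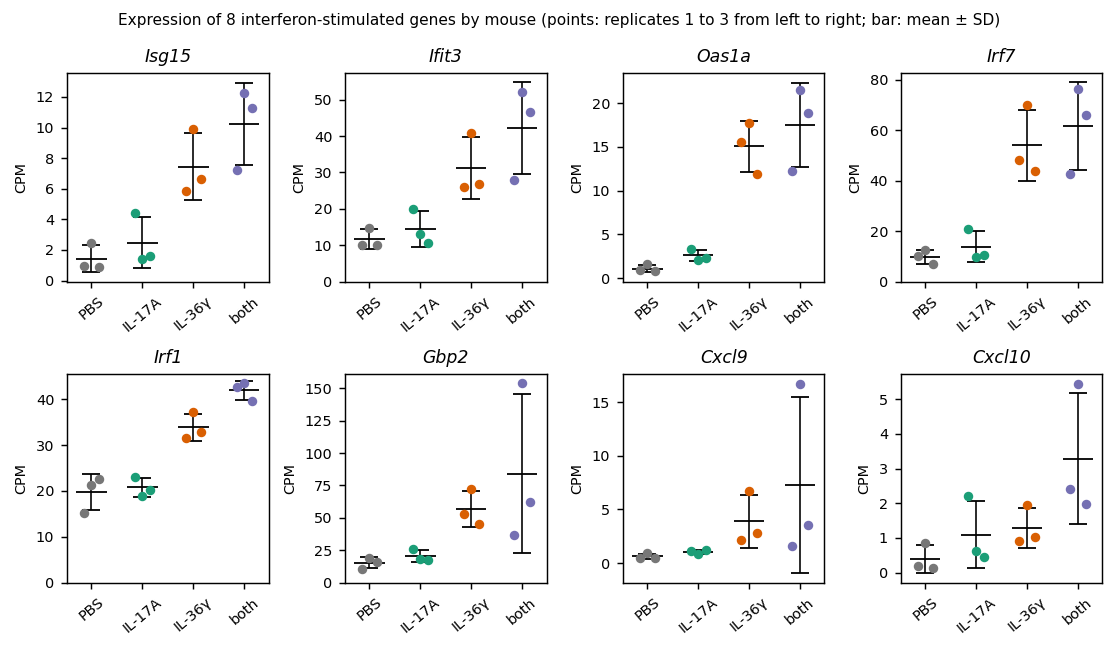
CPM of 8 interferon-stimulated genes in each mouse (points, replicates 1 to 3 from left to right) with the mean and SD of the 3 mice of a group (bars), each panel with its own linear scale. In every panel but that of Cxcl10 all ears with IL-36γ lie above all others. Gbp2, Cxcl9 and Cxcl10 have 1 combination ear, replicate 2, far above the rest at 154, 16.7 and 5.45 CPM.

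Of the interferon-γ core list, 8 of 9 genes were raised by IL-36γ, 9 by the combination and 0 by IL-17A, with median log2 fold changes of 1.66, 1.98 and 0.44. For IL-17A, 2 of the 9 had an unadjusted p below 0.05 in the edgeR test, beside 6013 of all 19408 tested genes. Over all 40 genes this number was 14. The guanylate-binding proteins are GTPases that attack vacuoles of intracellular pathogens. Gbp2 was at 10.8, 19.3 and 15.5 CPM with PBS, 26.1, 18.3 and 17.1 with IL-17A, 53.0, 72.2 and 44.9 with IL-36γ and 36.7, 154 and 62.1 with the combination. All ears with IL-36γ stood above all ears without it, and combination replicate 2 stood far above the other 2 combination ears. IL-36γ raised Gbp2 by a log2 value of 1.90 (SE 0.43, adjusted p = 0.00749) and the combination by 2.47 (SE 0.44, adjusted p = 8.68e-04), and the latter was 1.68 without combination replicate 2.

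Gbp3 was at 9.05, 11.98 and 8.85 CPM with PBS, 16.7, 11.67 and 12.2 with IL-17A, 29.0, 37.8 and 27.3 with IL-36γ and 23.2, 53.4 and 40.9 with the combination. Gbp5, whose protein also promotes inflammasome assembly, was at 1.49, 2.66 and 2.09 CPM with PBS, 3.87, 2.56 and 2.53 with IL-17A, 6.09, 8.13 and 5.65 with IL-36γ and 5.42, 14.2 and 7.59 with the combination. Gbp7 was at 13.9, 21.2 and 18.5 CPM with PBS, 25.6, 19.3 and 21.0 with IL-17A, 38.2, 49.3 and 39.1 with IL-36γ and 35.0, 57.2 and 50.8 with the combination. In these 3 genes PBS and IL-36γ did not overlap, and log2 fold changes lay between 1.24 (Gbp7) and 1.67 (Gbp5) after IL-36γ and between 1.417 and 2.12 after the combination. Gbp4 had the smallest change of the list, at 6.51, 9.32 and 8.55 CPM with PBS, 7.51, 6.95 and 9.21 with IL-17A, 12.2, 17.7 and 14.6 with IL-36γ and 10.1, 32.6 and 15.1 with the combination. It was not called after IL-36γ (log2 0.87, adjusted p = 0.0712) and was called after the combination (1.25, adjusted p = 0.0107), where it dropped to 0.62 without replicate 2. Gbp4 overlaps Gbp8 and Gbp9 on the same strand, and 11.2% of the windows of Gbp7 are shared with Gm43802.

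The immunity-related GTPases act on the same vacuoles. Iigp1 was at 5.23, 9.17 and 7.46 CPM with PBS, 8.79, 8.88 and 6.72 with IL-17A, 20.8, 32.2 and 16.3 with IL-36γ and 13.7, 51.8 and 24.0 with the combination. Igtp was at 4.51, 6.63 and 5.43 CPM with PBS, 8.68, 8.11 and 7.28 with IL-17A, 13.3, 16.4 and 11.4 with IL-36γ and 10.7, 22.5 and 14.1 with the combination. Irgm1, a regulator of the other GTPases of the family, was at 11.4, 16.03 and 14.4 CPM with PBS, 23.6, 16.5 and 18.9 with IL-17A, 30.3, 37.98 and 27.9 with IL-36γ and 27.4, 48.7 and 39.8 with the combination. Each was higher in every ear with IL-36γ than in every PBS ear, and combination replicate 2 was the highest of the 12 ears in all 3 genes. The log2 fold change of Iigp1 was 1.67 after IL-36γ, where the call was lost without IL-36γ replicate 2 (1.35, adjusted p = 0.0519), and 2.03 after the combination, or 1.36 without combination replicate 2. Igtp and Irgm1 rose by log2 values of 1.31 and 1.20 after IL-36γ and of 1.52 and 1.47 after the combination. The gene models of Igtp and Irgm2 overlap, with 7.66% of the windows of Igtp shared.

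Cxcl9 encodes a chemokine that attracts T cells and NK cells through the receptor Cxcr3. It was at 0.498, 0.906 and 0.515 CPM with PBS, 1.13, 0.831 and 1.21 with IL-17A, 2.13, 6.70 and 2.82 with IL-36γ and 1.60, 16.7 and 3.54 with the combination. Replicate 2 was the highest ear of both groups that received IL-36γ, by the widest margin among the interferon-γ genes in the combination. Against PBS, IL-36γ raised it by a log2 value of 2.60 (SE 0.78, adjusted p = 0.0278) and the combination by 3.50 (SE 0.78, adjusted p = 0.00359). The call for IL-36γ was lost without IL-36γ replicate 2 (log2 1.95, adjusted p = 0.118) and without PBS replicate 1 (0.0579), 2 (0.0558) or 3 (0.0955). Without combination replicate 2 the value for the combination was 1.99 (adjusted p = 0.0121).

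Among the 11 other antiviral genes, 10 were raised by IL-36γ, 10 by the combination and 0 by IL-17A. After IL-17A 5 had an unadjusted p below 0.05 in the edgeR test, beside 6013 of all 19408 tested genes. The median log2 fold changes of the 11 genes were 1.84 with IL-36γ, 2.18 with the combination and 0.57 with IL-17A. Zbp1, a sensor of left-handed nucleic acid that can trigger necroptosis, had the largest change of these. It was at 0.858, 2.92 and 0.879 CPM with PBS, 6.61, 2.29 and 2.90 with IL-17A, 11.2, 20.7 and 12.6 with IL-36γ and 12.4, 27.9 and 22.4 with the combination. IL-36γ raised it by a log2 value of 3.25 and the combination by 3.75 (SE 0.53, adjusted p = 2.11e-04), or 4.09 and 4.59 without PBS replicate 2, the highest PBS ear. Mx1 and Mx2 encode dynamin-like GTPases that trap viral particles, and the Mx1 allele of C57BL/6 mice is known to be defective. Mx1 was at 2.52, 7.70 and 1.97 CPM with PBS, 9.51, 4.06 and 4.26 with IL-17A, 12.05, 24.3 and 16.9 with IL-36γ and 14.1, 29.8 and 31.0 with the combination. Mx2, annotated as a polymorphic pseudogene, was at 0.914, 1.61 and 1.33 CPM with PBS, 2.29, 1.66 and 1.01 with IL-17A, 2.99, 5.33 and 3.72 with IL-36γ and 2.65, 4.54 and 5.25 with the combination. Both were raised by IL-36γ (log2 2.13 and 1.64) and by the combination (2.62 and 1.69), and without PBS replicate 2 the values of Mx1 were 2.98 and 3.48.

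Rsad2 encodes viperin, an enzyme that makes a chain-terminating nucleotide. It was at 2.44, 6.82 and 2.15 CPM with PBS, 14.0, 5.62 and 4.71 with IL-17A, 10.3, 17.5 and 10.7 with IL-36γ and 13.0, 20.8 and 18.1 with the combination, and IL-17A replicate 1 exceeded IL-36γ replicates 1 and 3. Its rise was 1.75 on the log2 scale with IL-36γ (adjusted p = 0.0177) and 2.18 with the combination (adjusted p = 0.00321). Without PBS replicate 2 these were 2.48 and 2.92, and the call for IL-36γ was lost without PBS replicate 3 (adjusted p = 0.0774) or IL-36γ replicate 2 (0.0709). Usp18, which removes Isg15 from proteins and damps the type I receptor, was at 1.83, 3.85 and 2.09 CPM with PBS, 5.71, 3.32 and 3.50 with IL-17A, 10.05, 11.67 and 10.4 with IL-36γ and 10.8, 13.3 and 14.7 with the combination. Bst2 encodes tetherin, which holds budding virus at the cell surface. It was at 5.48, 6.80 and 5.21 CPM with PBS, 10.5, 8.14 and 7.28 with IL-17A, 18.5, 25.1 and 18.9 with IL-36γ and 17.4, 29.99 and 23.2 with the combination. These genes were raised by log2 values of 2.05 and 1.84 after IL-36γ and of 2.32 and 2.01 after the combination, with no overlap between PBS and either group.

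Rtp4, known as an interferon-induced chaperone of membrane receptors, was at 2.44, 3.51 and 2.12 CPM with PBS, 8.90, 3.79 and 3.66 with IL-17A, 12.7, 18.3 and 15.3 with IL-36γ and 15.96, 22.0 and 23.9 with the combination. Xaf1, linked to cell death, was at 5.32, 7.90 and 5.09 CPM with PBS, 7.89, 6.18 and 5.99 with IL-17A, 13.5, 19.0 and 16.1 with IL-36γ and 14.9, 22.9 and 23.7 with the combination. Parp14, an ADP-ribosyltransferase, was at 26.9, 47.6 and 37.7 CPM with PBS, 50.4, 39.1 and 39.7 with IL-17A, 75.6, 92.6 and 75.99 with IL-36γ and 74.8, 100.1 and 98.3 with the combination. Their log2 fold changes were 2.52, 1.41 and 1.12 after IL-36γ and 2.94, 1.75 and 1.28 after the combination. That of Parp14 for IL-36γ lay near the threshold and was 0.93 without PBS replicate 1. Ifi44, a gene of few counts, was at 0.277, 0.538 and 0.546 CPM with PBS, 1.503, 0.499 and 0.483 with IL-17A, 2.46, 3.35 and 2.31 with IL-36γ and 1.44, 5.67 and 4.98 with the combination, with log2 fold changes of 2.58 and 3.15. Ifi35 was at 15.4, 19.8 and 16.2 CPM with PBS, 22.3, 19.2 and 16.5 with IL-17A, 24.2, 25.3 and 24.2 with IL-36γ and 28.1, 31.8 and 30.1 with the combination and had the smallest change of these genes, with 0.52 for IL-36γ (SE 0.12, adjusted p = 0.00703) and 0.81 for the combination (SE 0.12, adjusted p = 2.35e-04), below the fold threshold in both.

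The changes of the 2 sensors of viral RNA were small. Ddx58, which encodes RIG-I, was at 21.2, 27.9 and 25.8 CPM with PBS, 29.6, 27.8 and 26.9 with IL-17A, 32.8, 39.8 and 35.6 with IL-36γ and 31.3, 45.5 and 47.4 with the combination. Ifih1, which encodes MDA5, was at 28.3, 38.03 and 34.9 CPM with PBS, 38.6, 36.1 and 35.0 with IL-17A, 61.2, 67.7 and 61.1 with IL-36γ and 53.3, 75.8 and 73.1 with the combination. The ears with IL-36γ stood above the PBS ears for both genes. Ddx58 had log2 fold changes of 0.53 (adjusted p = 0.0196) and 0.73 (adjusted p = 0.00200) and Ifih1 of 0.91 (adjusted p = 6.51e-04) and 0.998 (adjusted p = 1.44e-04) after IL-36γ and the combination, and neither passed the fold threshold.

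Of the 5 transcription factors, 2 (Irf7 and Irf8) were raised by IL-36γ, 3 (with Irf1) by the combination and 0 by IL-17A. After IL-17A 1 of the 5 had an unadjusted p below 0.05 in the edgeR test, beside 6013 of all 19408 tested genes. Irf7, the factor that amplifies type I interferon production, had the largest change and was at 10.3, 12.4 and 6.91 CPM with PBS, 20.9, 9.87 and 10.5 with IL-17A, 48.1, 70.0 and 43.8 with IL-36γ and 42.5, 76.2 and 66.1 with the combination. All ears with IL-36γ exceeded all others, with log2 fold changes of 0.48 with IL-17A (adjusted p = 0.340), 2.45 with IL-36γ (SE 0.33, adjusted p = 3.69e-04) and 2.64 with the combination (SE 0.33, adjusted p = 9.93e-05). Irf8, which directs the development of monocytes and dendritic cells, was at 6.42, 8.81 and 7.70 CPM with PBS, 14.2, 9.41 and 12.7 with IL-17A, 20.9, 23.1 and 18.9 with IL-36γ and 22.5, 26.6 and 21.4 with the combination. It passed the adjusted p in all groups, with log2 fold changes of 0.66 (SE 0.16, adjusted p = 0.0310), 1.46 and 1.62.

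Irf1, the factor that carries much of the response to interferon-γ, was at 15.2, 21.2 and 22.7 CPM with PBS, 23.1, 18.9 and 20.2 with IL-17A, 31.5, 37.3 and 32.8 with IL-36γ and 42.7, 43.6 and 39.6 with the combination. The PBS and IL-17A ears overlapped, and all combination ears exceeded all IL-36γ ears. Against PBS the log2 value was 0.78 with IL-36γ (adjusted p = 0.00162) and 1.09 with the combination (SE 0.13, adjusted p = 9.37e-05), or 0.94 without PBS replicate 1. Irf9 was at 28.1, 35.6 and 29.8 CPM with PBS, 31.9, 29.2 and 25.9 with IL-17A, 58.1, 57.0 and 55.2 with IL-36γ and 53.3, 58.3 and 63.4 with the combination. Stat2 was at 23.4, 30.6 and 26.1 CPM with PBS, 26.2, 21.5 and 24.9 with IL-17A, 33.7, 47.0 and 40.6 with IL-36γ and 40.1, 52.2 and 45.4 with the combination. The partners Irf9 and Stat2 of the type I signalling complex passed the adjusted p but not the fold threshold against PBS, with log2 values of 0.86 and 0.60 after IL-36γ and of 0.91 and 0.78 after the combination, and IL-17A gave -0.10 (adjusted p = 0.520) and -0.14 (adjusted p = 0.523).

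The 3 genes of antigen processing were all raised by IL-36γ and by the combination, and 0 by IL-17A. After IL-17A 2 of the 3 had an unadjusted p below 0.05 in the edgeR test, beside 6013 of all 19408 tested genes. Psmb8 and Psmb9 encode subunits of the immunoproteasome, which cuts peptides for MHC class I, and Tap1 encodes a part of the transporter that carries them. Psmb8 was at 14.3, 18.4 and 15.8 CPM with PBS, 29.9, 23.2 and 22.7 with IL-17A, 53.4, 60.9 and 46.9 with IL-36γ and 43.6, 86.0 and 53.6 with the combination. Psmb9 was at 6.15, 7.08 and 6.61 CPM with PBS, 10.7, 9.18 and 8.85 with IL-17A, 19.9, 19.8 and 19.0 with IL-36γ and 15.8, 28.1 and 20.9 with the combination. Tap1 was at 31.3, 39.9 and 38.5 CPM with PBS, 43.8, 42.4 and 41.8 with IL-17A, 80.6, 85.3 and 82.2 with IL-36γ and 73.2, 105 and 76.4 with the combination. The spread between ears was small outside combination replicate 2, and log2 fold changes were 1.73, 1.56 and 1.18 after IL-36γ and 1.92, 1.71 and 1.22 after the combination. Psmb9 and Tap1 overlap on opposite strands, as do Irf7 and Phrf1, and the strand setting of the counting is not given in the sources used here.

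Cxcl10, whose product binds the same receptor as that of Cxcl9, was at 0.194, 0.849 and 0.121 CPM with PBS, 2.22, 0.632 and 0.443 with IL-17A, 0.898, 1.95 and 1.03 with IL-36γ and 2.42, 5.45 and 1.97 with the combination. IL-17A replicate 1 exceeded all IL-36γ ears. Log2 fold changes were 1.48 with IL-17A (SE 0.77, adjusted p = 0.211), 1.72 with IL-36γ (SE 0.75, adjusted p = 0.101) and 3.05 with the combination (SE 0.71, adjusted p = 0.00459). The last value, the only call of these 3, was 4.34 without PBS replicate 2 and 2.47 without combination replicate 2. Cxcl10 lies antisense to Art3.

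**Figure D3:**
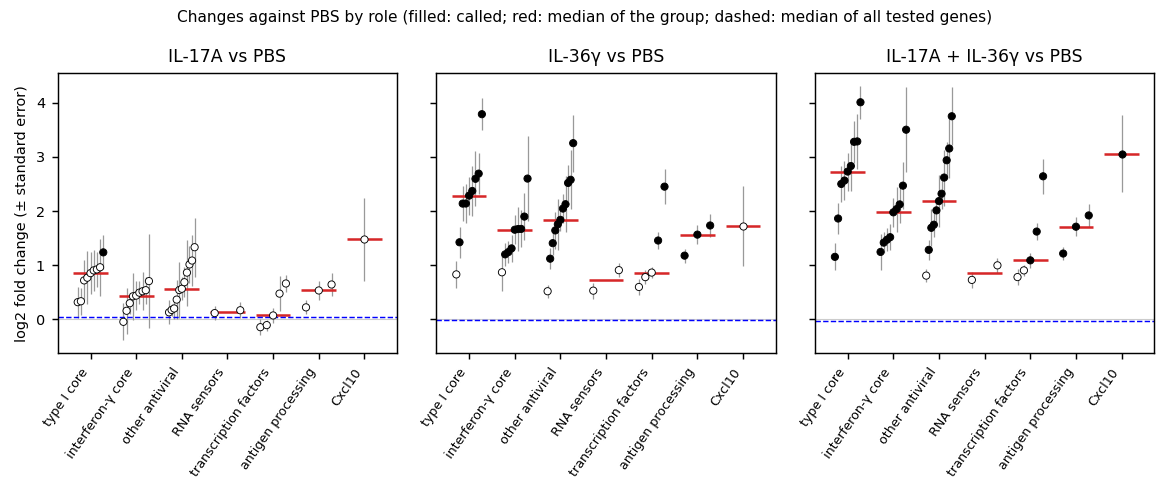
Log2 fold change against PBS of each of the 40 genes (points, with the standard error of the edgeR fit as a line) by role, with 1 panel for each cytokine group, filled points for called genes, red bars for the median of a role and a dashed line for the median of all tested genes. After IL-17A the filled point is Oas1a. The red bars there lie at or below 0.85, apart from that of the single gene Cxcl10 at 1.48, which was not called. The type I core has a higher median than the interferon-γ core in all 3 panels (0.85 and 0.44, 2.28 and 1.66, 2.73 and 1.98).

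Levels per kilobase of exon allow genes to be set side by side. In the PBS ears the highest mean was that of Ifi35 (9.91 ± 1.36 CPM per kilobase, SD, n = 3), ahead of Tap1 (6.68 ± 0.847) and Ifit3 (6.67 ± 1.58), which do not differ beyond their spread, and the lowest was that of Ifi44 (0.0740 ± 0.0250). In the combination the order was led by Gbp2 (33.5 ± 24.5), Bst2 (26.1 ± 6.98) and Ifit3 (24.2 ± 7.28), whose ranges of mean ± SD overlap. Without combination replicate 2, Gbp2 was at 19.6 CPM per kilobase, below Bst2 (22.5) and Ifit3 (21.4). Ifi44 was again the lowest, at 0.658 ± 0.370. Oas1a moved from 0.576 ± 0.219 with PBS to 9.30 ± 2.55 with the combination.

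The core lists were then followed through the single ears. In each library the log2 CPM of a gene was set against the mean of the PBS ears, and the median over a list was taken. For the type I core it was -0.35, 0.58 and -0.33 with PBS, 1.55, 0.57 and 0.39 with IL-17A, 1.85, 2.79 and 2.21 with IL-36γ and 2.44, 3.04 and 2.90 with the combination. All ears with IL-36γ thus stood above all ears without it on this scale. For the interferon-γ core it was -0.30, 0.28 and 0.06 with PBS, 0.76, 0.30 and 0.30 with IL-17A, 1.55, 1.94 and 1.20 with IL-36γ and 0.99, 2.43 and 1.76 with the combination. Here too all ears with IL-36γ stood above all ears without it, the lowest at 0.99 and the highest without it at 0.76. On this list the range of the combination enclosed that of IL-36γ alone, with replicate 1 below all IL-36γ ears and replicate 2 above them, whereas on the type I list replicate 1 lay between the IL-36γ ears.

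The type I median exceeded the interferon-γ median in all 9 cytokine-treated ears and in 1 of the 3 PBS ears. The difference was -0.05, 0.30 and -0.39 with PBS, 0.79, 0.27 and 0.09 with IL-17A, 0.30, 0.85 and 1.01 with IL-36γ and 1.45, 0.60 and 1.14 with the combination. The largest difference was in combination replicate 1 and the smallest of that group in replicate 2, so that the groups with IL-36γ overlapped each other and overlapped IL-17A. These values are a description with no test over a list, since the genes were chosen with earlier results of these data known.

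**Figure D4:**
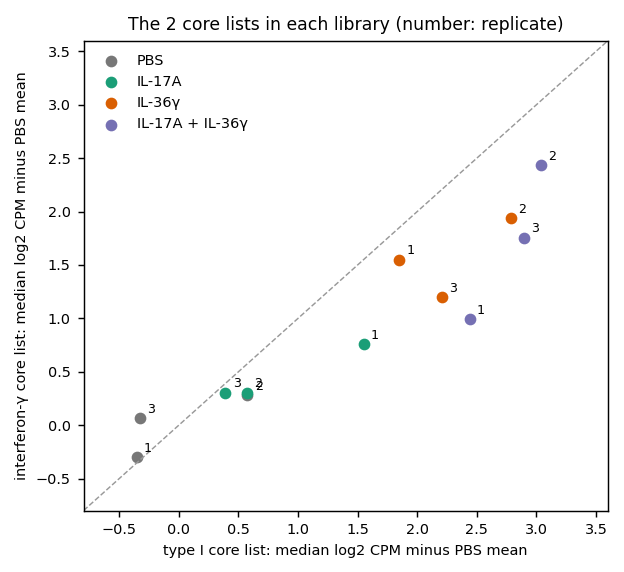
Median log2 CPM above the PBS mean of the type I core list (horizontal axis) and of the interferon-γ core list (vertical axis) in each of the 12 ears, numbered by replicate, with a dashed line of equality. All 9 cytokine-treated ears lie below the line, and combination replicates 1 and 2 are far apart on the vertical axis (0.99 and 2.43) and close on the horizontal axis (2.44 and 3.04).

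Within each group the genes moved together from ear to ear. PBS replicate 2 was the highest PBS ear for 38 of the 40 genes, IL-17A replicate 1 the highest of its group for 37 and IL-36γ replicate 2 for 38. In the combination, replicate 2 was highest for 29 genes and replicate 3 for 11, and replicate 1 was lowest for 37. Such counts over all tested genes are not given here, so these cannot be read as particular to the 40 genes. The ratio of combination replicate 2 to the mean of the other 2 ears had a median of 2.18 over the interferon-γ core, from 1.33 to 6.50 with Cxcl9 the highest, and of 1.32 over the type I core, from 0.97 to 1.501. The same ratio for IL-36γ replicate 2 was 1.34 for the interferon-γ core and 1.497 for the type I core. Without combination replicate 2 the median log2 fold change of the interferon-γ core in the combination was 1.36 in place of 1.98, and without PBS replicate 2 that of the type I core was 3.07 in place of 2.73.

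IL-17A replicate 1 carried much of the difference from PBS in its group. Without it the median log2 fold change after IL-17A was 0.26 in place of 0.85 for the type I core and 0.23 in place of 0.44 for the interferon-γ core. Without PBS replicate 2 these medians were 1.21 and 0.60. The range of the 3 IL-17A ears on the type I list, from 0.39 to 1.55, overlapped that of PBS, from -0.35 to 0.58.

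The addition of IL-36γ to IL-17A, given by the combination against IL-17A alone, raised 29 of the 40 genes, beside 4.46% of all tested genes, and 38 by the adjusted p alone (15.1% of all genes), with Rsad2 and Cxcl10 as the exceptions. The median log2 difference was 1.54. Type I core genes rose in 8 of 9 cases, with a median of 1.84 and the largest value for Oas1a (2.77, SE 0.28, adjusted p = 1.38e-04). Interferon-γ core genes rose in 7 of 9 cases, with a median of 1.54 and the largest value for Cxcl9 (2.79, adjusted p = 0.0148), which was 1.32 (adjusted p = 0.0814) without combination replicate 2 and lost its call without IL-17A replicate 2 as well (adjusted p = 0.0579). Irf9 was called in this comparison (1.01) and not against PBS, and its value lay at the threshold, with 0.93 without IL-17A replicate 3 and 0.96 without combination replicate 3.

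Set directly against IL-17A, IL-36γ alone raised 17 of the 40 genes, beside 1.25% of all tested genes, among them 6 of the type I core and 2 of the interferon-γ core (Gbp3 and Iigp1). All 40 log2 differences were above 0, except that of Cxcl10 without IL-17A replicate 2 or 3 or IL-36γ replicate 2, with a median of 1.18, and the largest was that of Oas1a (2.55, SE 0.28, adjusted p = 0.00124). This number rested on single ears, with 4 genes called without IL-17A replicate 2, 8 without IL-17A replicate 3 and 5 without IL-36γ replicate 2.

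The addition of IL-17A to IL-36γ called 0 of the 40 genes in edgeR's quasi-likelihood test, beside 0.0103% of all tested genes. DESeq2 also called 0, beside 0.485% of all genes. In edgeR 2 genes (Ifi35 and Irf1) had an unadjusted p below 0.05, beside 2938 of all 19408 tested genes, and in DESeq2 2 genes. The log2 differences were above 0 for all 40 genes, from 0.04 to 1.33 with a median of 0.32. Without combination replicate 2 they were above 0 for 29 genes and reached down to -0.59 (Cxcl9), without combination replicate 3 for 38 and without IL-36γ replicate 1 for 39. For 22 genes the 95% interval of the log2 difference ended below 1, and over the remaining genes it reached up to 2.69. The 3 combination ears lay above the 3 IL-36γ ears for 4 genes, Oas3, Ifi35, Irf1 and Cxcl10, beside 9.33% of all genes. Cxcl10 had the largest difference (1.33, 95% interval -0.03 to 2.69, adjusted p = 0.338), followed by Cxcl9 (0.90, 95% interval -0.54 to 2.35). Irf1 differed by 0.31 (95% interval 0.02 to 0.60, adjusted p = 0.299) and Tap1 by 0.04 (-0.24 to 0.31).

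The interaction compares what IL-17A adds when IL-36γ is present with what it adds to PBS alone, as a difference of log2 values, and it was called for 0 of the 40 genes in edgeR's quasi-likelihood test, beside 0.551% of all tested genes, and for 0 in DESeq2, beside 8.26%. An unadjusted p below 0.05 was reached by 2 genes in each tool, beside 4373 of all 19408 tested genes in edgeR. In edgeR the 2 genes were Oas1a (-1.02, 95% interval -1.89 to -0.15, adjusted p = 0.167) and Irf8 (-0.50, 95% interval -0.99 to -0.01, adjusted p = 0.216). The interaction was above 0 for 11 genes and had a median of -0.20, beside 41.4% of all tested genes above 0 and a median of -0.07. It was above 0 for 19 genes with scaling by library size only, for 27 without IL-17A replicate 1, for 20 without PBS replicate 1 or combination replicate 1, for 18 without IL-36γ replicate 2, for 6 without PBS replicate 2 and for 5 without combination replicate 2. For 31 genes the 95% interval of the interaction ended below 1, and the intervals of the 40 genes reached from -2.36 to 2.61.

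**Figure D5:**
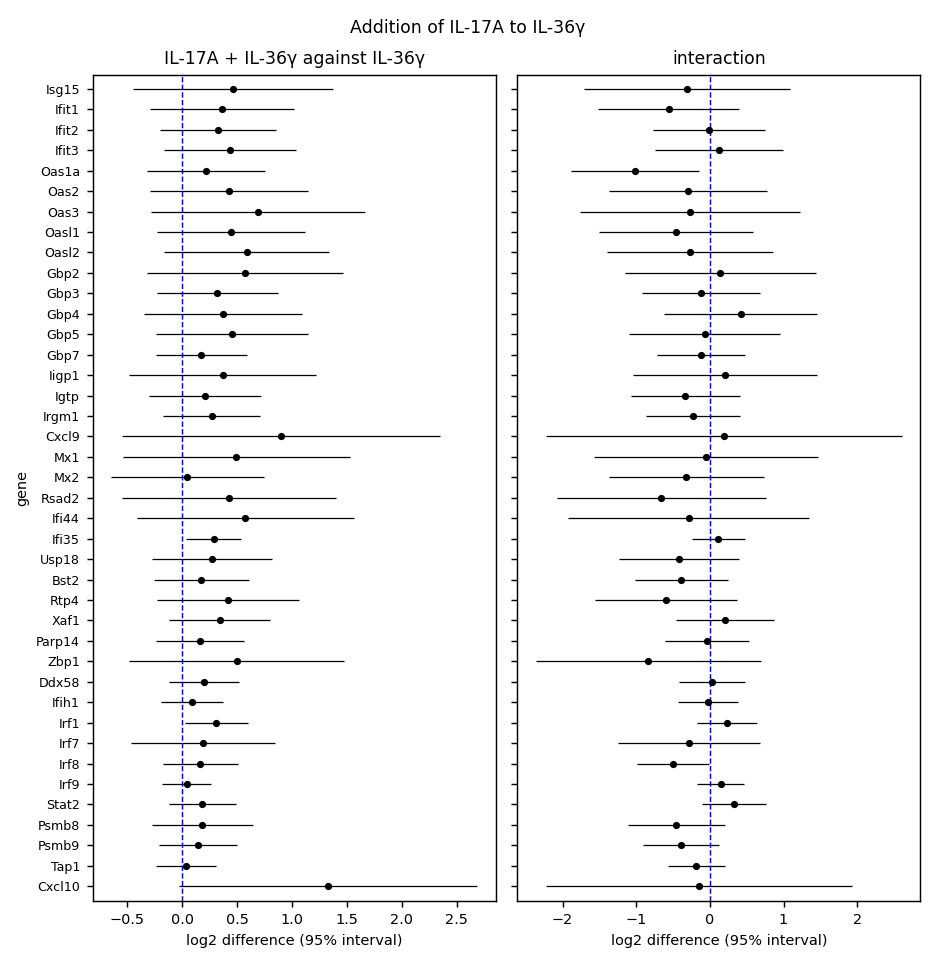
Log2 difference between the combination and IL-36γ alone (left) and the interaction (right) for the 40 genes, with points for the edgeR estimate, lines for the 95% interval and a dashed line at 0. All 40 points on the left lie at or above 0.04 and all but 2 intervals (Ifi35 and Irf1) include 0, and on the right 29 of the 40 points lie below 0 (21 with scaling by library size only) with all but 2 intervals (Oas1a and Irf8) including 0.

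The interferons themselves were barely measured. Of 21 interferon genes, 15 had no count in any ear, 19 had 3 counts or fewer in every ear, and 0 passed the filter for testing. Ifng, the gene of interferon-γ, had 0, 0 and 0 counts with PBS, 1, 0 and 0 with IL-17A, 0, 3 and 0 with IL-36γ and 5, 1 and 0 with the combination. Ifnk, the type I interferon known from keratinocytes, had 0, 4 and 1 counts, 8, 2 and 0 counts, 0, 11 and 0 counts, and 0, 5 and 1 counts in the same order. Ifnb1 had 1 count in IL-36γ replicate 1 and Ifne had 0 in all ears. A count of 0 still allows an expected count of up to about 3 per library.

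Of 6 negative regulators, 1 was called after the combination, Socs3, an inhibitor of Stat3 signalling (1.14, adjusted p = 4.78e-05). Socs1, the inhibitor induced by interferon-γ, was at 5.43, 3.91 and 4.46 CPM with PBS, 4.32, 5.02 and 4.79 with IL-17A, 6.95, 4.60 and 4.54 with IL-36γ and 4.68, 4.61 and 5.15 with the combination, with log2 values of 0.04, 0.22 and 0.07 and adjusted p from 0.368 to 0.917.

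Among 54 further interferon-stimulated genes outside the 40, 49 were tested. Of these, 2 were raised by IL-17A, 24 by IL-36γ and 36 by the combination, with 0 lowered. The shares raised over all tested genes were 1.07%, 5.11% and 7.35%. Median log2 fold changes of the 49 genes were 0.35, 1.10 and 1.35. The largest changes after the combination were those of Oas1g (4.26, adjusted p = 3.85e-05), Ifitm1 (3.22), Ifit1bl1 (2.71, SE 0.75) and Ifi204 (2.41). Ifitm1 and Ifitm3, which block the entry of enveloped viruses, were the 2 raised by IL-17A (1.34, adjusted p = 0.0468, and 1.05, adjusted p = 0.00576). Ifitm3 was at 70.8, 72.1 and 54.2 CPM with PBS, 163, 122 and 122 with IL-17A, 192, 220.2 and 198 with IL-36γ and 280.4, 286 and 245 with the combination.

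Markers of several immune cell types differed between the groups. The 9 markers of monocytes and macrophages summed to between 708 and 842 CPM with PBS, 1158 and 1492 with IL-17A, 1766 and 1944 with IL-36γ and 1696 and 1908 with the combination, and 7 of 9 were called raised after IL-36γ. Among them Ly6c2 (log2 4.49 after IL-36γ) and Fcgr1 (2.62) are known to answer to interferon as well. All 8 neutrophil markers were called raised after IL-36γ and after the combination, and 5 of the 8 after IL-17A, beside 1.07% of all tested genes. Their sum was between 13.1 and 89.2 CPM with PBS, 378 and 869 with IL-17A, 2277 and 4831 with IL-36γ and 7606 and 10037 with the combination. Nearly all of that sum was S100a8 and S100a9, which stressed keratinocytes and macrophages are known to make too. The other 6 summed to between 7.52 and 12.5 CPM with PBS, 20.1 and 53.8 with IL-17A and 92.8 and 189.9 with the combination. Among them Ly6g had 0 counts in every PBS ear, 4, 0 and 3 with IL-17A, 1, 6 and 7 with IL-36γ and 22, 15 and 18 with the combination. Its counts in the PBS ears were too few for a fold change.

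The 7 NK cell markers summed to 9.74 to 12.9 CPM with PBS, 12.8 to 15.6 with IL-17A, 16.9 to 24.4 with IL-36γ and 20.4 to 26.01 with the combination. The highest ears were PBS replicate 2 (12.88, with 12.46 in replicate 3), IL-17A replicate 1, IL-36γ replicate 2 and combination replicate 2. Most of the 40 genes were highest in these ears within their groups. The neutrophil sum peaked in the same ears, but in combination replicate 1. The monocyte and macrophage sum peaked in IL-36γ replicate 1 and combination replicate 3, and the keratinocyte sum in replicate 1 of every group. The T cell sum peaked in IL-17A replicate 2 and IL-36γ replicate 3. Klrk1 made up most of the NK sum in the PBS ears, at 6.62, 8.66 and 7.94 CPM. Of the 6 NK cell markers tested, 3 were called raised after IL-36γ and after the combination, the granzyme genes Gzma and Gzmb and the NK receptor gene Ncr1. Gzma had 3, 3 and 1 counts with PBS, too few for a fold change. Ncr1 had 1, 1 and 1 counts with PBS, 2, 2 and 2 with IL-17A, 17, 47 and 6 with IL-36γ and 27, 43 and 26 with the combination, too few in the PBS ears for a fold change. The perforin gene Prf1 did not pass the test and had log2 fold changes below 0, -0.30 (adjusted p = 0.302) and -0.52 (adjusted p = 0.0652).

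T cell markers did not all differ in the same direction. In sum the 9 were at 35.6 to 40.6 CPM with PBS, 37.6 to 46.1 with IL-17A, 38.3 to 41.1 with IL-36γ and 33.9 to 36.2 with the combination. After IL-36γ 3 of 8 tested were called raised, Trac (log2 1.84), Cd4 (1.13) and Cd8a. Cd8a had 3, 0 and 0 counts with PBS and 4, 18 and 4 with IL-36γ, too few in the PBS ears for a fold change. Trdc, a gene of γδ T cells, was lower by the adjusted p after IL-36γ (log2 -0.77, adjusted p = 0.00453) and called lowered after the combination (-1.17, adjusted p = 1.84e-04). After the combination Cd3g had a log2 value of -0.71 (adjusted p = 7.42e-04) and Cd3e one of -0.63 (adjusted p = 0.0670). Of the 8 tested, 2 were called raised after the combination, beside 7.35% of all tested genes, and 1 was called lowered. In all, 5 of the 8 had log2 values above 0, with a median of 0.28. Trac was at 0.498, 0.595 and 0.455 CPM with PBS and 1.91, 2.52 and 2.61 with the combination, and Cd8a had 23, 21 and 9 counts with the combination.

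The 9 markers of conventional dendritic cells overlapped between PBS (54.3 to 67.9 CPM in sum) and the other groups (64.1 to 75.5, 63.6 to 82.3 and 52.9 to 67.2), with Batf3 and Ccr7 called raised after IL-36γ and after the combination and Zbtb46 at a log2 value of -0.70 (adjusted p = 0.00212) after the latter. Of plasmacytoid dendritic cells, 5 markers other than Bst2 summed to 7.67 to 8.78 CPM with PBS, 10.3 to 10.6 with IL-36γ and 11.2 to 12.1 with the combination. Most of that difference was Ccr9, with a mean of 5.17 ± 1.29 CPM with PBS and 8.55 ± 0.1003 with the combination (SD, n = 3). Siglech, the defining marker of these cells, had log2 values of -0.51 after IL-36γ (adjusted p = 0.270) and -0.34 after the combination (adjusted p = 0.434). After IL-36γ 2 of the 5 were above 0, with a median of -0.07. After the combination 4 of the 5 were above 0, with a median of 0.36, and 1 was called raised. Spib had 7, 11 and 4 counts with PBS and 22, 14 and 14 with the combination. The part of these cell types, keratinocytes and muscle in the changes of the interferon-stimulated genes was not tested.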

How the data were processed

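RNA of mouse ears was sequenced with 76-base reads from ribosome-depleted, stranded libraries, 12 in all with 3 mice in each of 4 groups. Per the labels, the authors used STAR 2.5.2b with the genome mm10, and featureCounts of Subread 1.5.1 gave reads per Ensembl gene. The deposited values are raw counts. The strand setting and the annotation release are not given in the sources used here. The authors also deposited tables of their comparisons from DESeq2 1.30.0, which hold a mean of normalized counts, a log2 fold change, its standard error, a test statistic and p-values with gene symbols. Of these tables only the symbols were used, to match names to Ensembl identifiers.

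The software comprised edgeR 4.0.16, DESeq2 1.42.0, limma 3.58.1 and the package data.table (version 1.17.8), used in R 4.3.3. Groups were taken from the sample labels. The filter was filterByExpr with a minimum count of 10 and the scaling was TMM. The edgeR quasi-likelihood test ran in 1 fit of 4 group means over all 12 libraries (8 residual degrees of freedom, common biological coefficient of variation 14.2%). A change was called where the adjusted p (Benjamini-Hochberg over 19408 genes) was below 0.05 and the log2 fold change beyond 1 in size, and an interaction by the adjusted p alone. CPM were scaled by TMM, and log2 CPM used a prior count of 0.5. Intervals are 95% intervals of the log2 difference estimated by the fit, not of the values of single mice. Their width draws on the spread between mice, counting error included. No group held 3 counts or fewer of any of the 40 genes.

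Gene positions, exon lengths and shared 76-base windows came from GENCODE vM21 of GRCm38, which is not stated to be the release used for counting, and promoters from RefSeq. The 40 genes, their role groups and the further lists were chosen with earlier results of these data known. Values in every library are given for genes called in any comparison, for the largest and smallest change in a role group and for Isg15, Ifit3, Irf7, Irf1, Gbp2, Cxcl9, Cxcl10 and Tap1. Of the further lists Ifng, Ifnb1, Ifnk, Ifne, Socs1 and up to 4 called genes of the largest change are named, and a list of receptor and signalling genes is not reported here. Ifitm3 and all marker genes given with a value of their own were named after their values were seen. Alternatives were scaling by DESeq2-type size factors, scaling by library size alone, a likelihood ratio test in DESeq2, no filter, a filter on 10 counts in each library, a fit of only the groups compared, no fold threshold, a prior count of 2, the replicate number as a block and each library left out in turn.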

Additional observations from a re-analysis of the deposited data

How the results depend on the processing

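No called value changed direction under any alternative run. The numbers of genes called after IL-36γ (30 to 38), after the combination (34 to 40), for the combination against IL-17A (29 to 38) and for IL-36γ against IL-17A (18 to 25) stayed within 1.5 times their values, and those for the combination against IL-36γ and for the interaction were 0 throughout. The number for IL-17A, 1 in the report, was 2 with DESeq2 (Oas1a and Rtp4), 2 with no fold threshold and 0 with only the groups compared. Over all genes, the number called after IL-17A was 407, and it was 9 with only the groups compared and 11 without PBS replicate 3, and the share with a called interaction, 0.551%, was 4.55% with the replicate block and 0.00505% to 7.77% with each library left out. The highest counts of the other comparisons came with no fold threshold, which by construction calls more genes.

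With each library left out in turn, the number called was 0 to 1 for IL-17A, 28 to 33 for IL-36γ, 33 to 37 for the combination, 24 to 36 for the combination against IL-17A and 4 to 22 for IL-36γ against IL-17A. The median log2 fold change in the combination was 2.51 to 3.07 for the type I core and 1.36 to 2.24 for the interferon-γ core. After IL-36γ it was 1.98 to 2.63 and 1.35 to 1.81, and after IL-17A it was 0.26 to 1.21 and 0.23 to 0.60. The cause of these shifts was not tested.

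With the replicate block, 1, 31 and 35 genes were called after IL-17A, IL-36γ and the combination, and 19 for IL-36γ against IL-17A. The labels give the groups the same replicate numbers but no shared litter or day, and of 18 same-numbered pairs of samples 8 had a correlation of their deviations above 0.1 (range -0.26 to 0.43), so the block is given here only.

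Of 21 interferon genes 0 had enough counts to be tested.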
